A study of Rattus norvegicus with 23 samples.

Results

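The genes described here build and fill the lysosome: the subunits of its proton pump, the cathepsin proteases and the lysosome-associated membrane proteins (LAMPs). They were taken by gene symbol alone, as every gene whose name starts with Atp6v or Atp6ap, is Cts followed by 1 letter, or is Lamp followed by 1 digit. That gave 34 of the 11283 genes in the comparison tables for 6 and 12 weeks, namely 20 pump genes, 12 cathepsins and 2 LAMPs. Of these 34, 31 were among the 10723 genes with values for each library at 12 weeks, and all 31 passed the filter on low values. The 3 without such values were Atp6v0d2, Atp6v1g2 and Ctsw.

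The tissue was myocardium of Sprague-Dawley rats, sequenced as polyadenylated RNA. One set of rats (MI+TRD) had a myocardial infarction by ligation of the left coronary artery and then a second operation to implant a device that the labels call TRD, and the other (MI) had the infarction alone, so every heart studied was infarcted and no uninjured heart served as a control. At 12 weeks after surgery there were 6 MI+TRD and 6 MI libraries, and at 6 weeks 5 MI+TRD and 6 MI libraries. The labels give neither age, sex nor the part of the heart that was sampled, and they do not mention an operation without the device in the MI rats, so the device and its surgery cannot be told apart.

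The lysosomal proton pump, or V-ATPase, is a rotary motor. Its cytosolic V1 sector hydrolyses ATP and turns a stalk that drives the proteolipid ring of the membrane-bound V0 sector, which carries protons into the lysosome. The acid activates cathepsins, which digest proteins delivered by autophagy and endocytosis, while the heavily glycosylated LAMPs line the membrane. In the heart, cardiomyocytes use lysosomes to renew long-lived organelles, and loss of human LAMP2 causes the cardiomyopathy of Danon disease. Macrophages are rich in lysosomes and in cathepsins S, Z, B and K.

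Many lysosomal genes carry in their promoters an E-box that the transcription factor TFEB binds, with the core CACGTG. RefSeq promoters (build GRCr8) were matched by symbol for 27 of the 34 genes and searched over the 250 bases before the annotated start, and since the core and its longer form TCACGTGA each read the same on both strands, 1 search covered both. The core was in 4 of the 27 promoters (14.8%), against 5.59% of all 33469 rat promoters and 8.19% of those of the genes tested at 12 weeks. The longer form, which contains the core, was in 3 of the 27 (11.1%), against 0.657% and 1.47%. The 4 promoters that held the core are shown as windows of 60 bases, 5′ to 3′ on the gene's strand, because they are the sequences among these genes that carry it. Capitals mark the core.
Atp6v0d1, chr19:50357268-50357327, minus strand: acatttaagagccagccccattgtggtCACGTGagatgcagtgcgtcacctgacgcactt
Ctsd, chr1:206968822-206968881, minus strand: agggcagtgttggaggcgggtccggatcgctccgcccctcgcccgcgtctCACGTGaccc
Ctsf, chr1:211581993-211582052, plus strand: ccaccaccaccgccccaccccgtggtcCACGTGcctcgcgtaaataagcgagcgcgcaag
Lamp1, chr16:83075069-83075128, minus strand: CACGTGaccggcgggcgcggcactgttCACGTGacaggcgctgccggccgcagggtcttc
The core began 52 bases before the start of Atp6v0d1, 10 bases before that of Ctsd and 149 bases before that of Ctsf. Lamp1 held 5 copies, the nearest 38 bases before the start, and Ctsd held 2. Ctsf had the core without the longer form. A match is a string of letters, not a measured binding site, and a promoter without the core says nothing of TFEB.

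Cathepsins made up most of the members that stood higher with the device at 6 weeks. At an unadjusted p below 0.05 in the authors' deposited table, 10 of the 34 genes were higher in MI+TRD (29.4%) and 1 was lower, while 4.42% of all 11283 genes were higher and 4.09% lower. Of the 12 cathepsins 7 were higher at that p, and the ratio of MI+TRD to MI lay above 1 for all 12 in the authors' deposited table. Of all 11283 genes 4851 had a ratio above 1 there. None of the 34 genes passed a step-up false discovery rate (FDR) of 0.05 in that table, as 0% of all genes did, and the lowest FDR of a member was 0.348, for Ctsc. The levels for each library at 6 weeks were not used here, so the spread behind these ratios is seen only through the authors' p-values. All values are normalized counts that are not divided by transcript length, so levels are compared between groups and never between genes.

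The cathepsins with the largest 6-week ratios were Ctsz, Ctss and Ctsk. Ctsz encodes cathepsin Z, a carboxypeptidase, and its mean in the authors' deposited table was 40.6 in MI+TRD and 11.4 in MI, a ratio of 3.56 (p = 0.00643). Ctss encodes cathepsin S, which trims the invariant chain of MHC class II, and its means in the authors' deposited table were 36.5 in MI+TRD and 12.8 in MI (ratio 2.85, p = 0.0227). Ctsk encodes cathepsin K, the collagen-cutting protease of osteoclasts, with means of 16.4 in MI+TRD and 6.27 in MI in the authors' deposited table (ratio 2.62, p = 0.0137).

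Widely expressed cathepsins were displaced the same way by less. Ctsb, the gene of the major cysteine protease cathepsin B, had means of 346 in MI+TRD and 184 in MI in the authors' deposited table (ratio 1.88, p = 0.00558). Ctsc encodes dipeptidyl peptidase I, which activates granule proteases, and the authors' deposited table gives it 32.2 in MI+TRD and 20.6 in MI (ratio 1.56, p = 0.0026). Ctsa, whose product stabilises β-galactosidase and neuraminidase, had 102.6 in MI+TRD and 67.9 in MI (ratio 1.51, p = 0.0138) in the authors' deposited table. The aspartic protease gene Ctsd had 267 in MI+TRD and 198.5 in MI (ratio 1.345, p = 0.0253) in the authors' deposited table. The 5 cathepsins that missed this p, namely Ctse, Ctsf, Ctsh, Ctsl and Ctsw, had ratios between 1.02 and 1.63 in the authors' deposited table. The list's median log2 ratio was 0.62 over the 12 cathepsins, beside −0.04 over all genes of the authors' deposited table.

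Pump genes were mostly near equality at 6 weeks. Of the 20, 2 were higher and 1 lower at p below 0.05 in the authors' deposited table, and the median log2 ratio of the 20 was 0.11. At that p 4.42% of all genes were higher and 4.09% lower. The catalytic A subunit gene Atp6v1a had means of 28.9 in MI+TRD and 21.6 in MI (ratio 1.34, p = 0.015) in the authors' deposited table. Atp6v0a1, which encodes an isoform of the large membrane subunit that takes the protons across, was the 1 member lower, at 59.5 in MI+TRD and 76.3 in MI (ratio 0.780, p = 0.0183) in the authors' deposited table. Atp6v0d2, an isoform of the subunit joining the stalk to the ring that is known from osteoclasts and macrophages, had 0.677 in MI+TRD and 0.0576 in MI (p = 0.0105) in the authors' deposited table. A library without a read of a gene showed 0.0392 to 0.054 units at 12 weeks, so if the scale at 6 weeks was similar its MI mean lay near no reads, and no fold is given. Of the LAMPs, Lamp2 had 38.9 in MI+TRD and 29.5 in MI (ratio 1.32, p = 0.012) and Lamp1 had 220.2 in MI+TRD and 209.5 in MI (ratio 1.05, p = 0.602), both from the authors' deposited table.

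Genes of macrophages and scar cells stood higher in the same comparison. Of 19 macrophage and monocyte markers all 19 had a ratio above 1 in the authors' deposited table and 15 were higher at p below 0.05, with a median log2 ratio of 1.38. Among all genes 4851 of 11283 had a ratio above 1, and 4.42% were higher and 4.09% lower at that p. The antibody receptor gene Fcgr2b had 9.2 in MI+TRD and 0.695 in MI, and the lysozyme gene Lyz2 508 in MI+TRD and 84.4 in MI, in the authors' deposited table. Of 8 fibroblast markers 6 were higher at that p, with Postn, the periostin gene of scar fibroblasts, at 75.1 in MI+TRD and 7.92 in MI in the authors' deposited table. No cardiomyocyte marker passed either way among 10, but 0 of the 10 had a ratio above 1, with a median log2 ratio of −0.17. Of 6 endothelial markers 0 had a ratio above 1 and 3 were lower at that p in the authors' deposited table, with a median log2 ratio of −0.37. The part these cells had in the cathepsin ratios was not tested, and in whole tissue more cells of a type and more RNA per cell cannot be told apart.

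**Figure D1:**
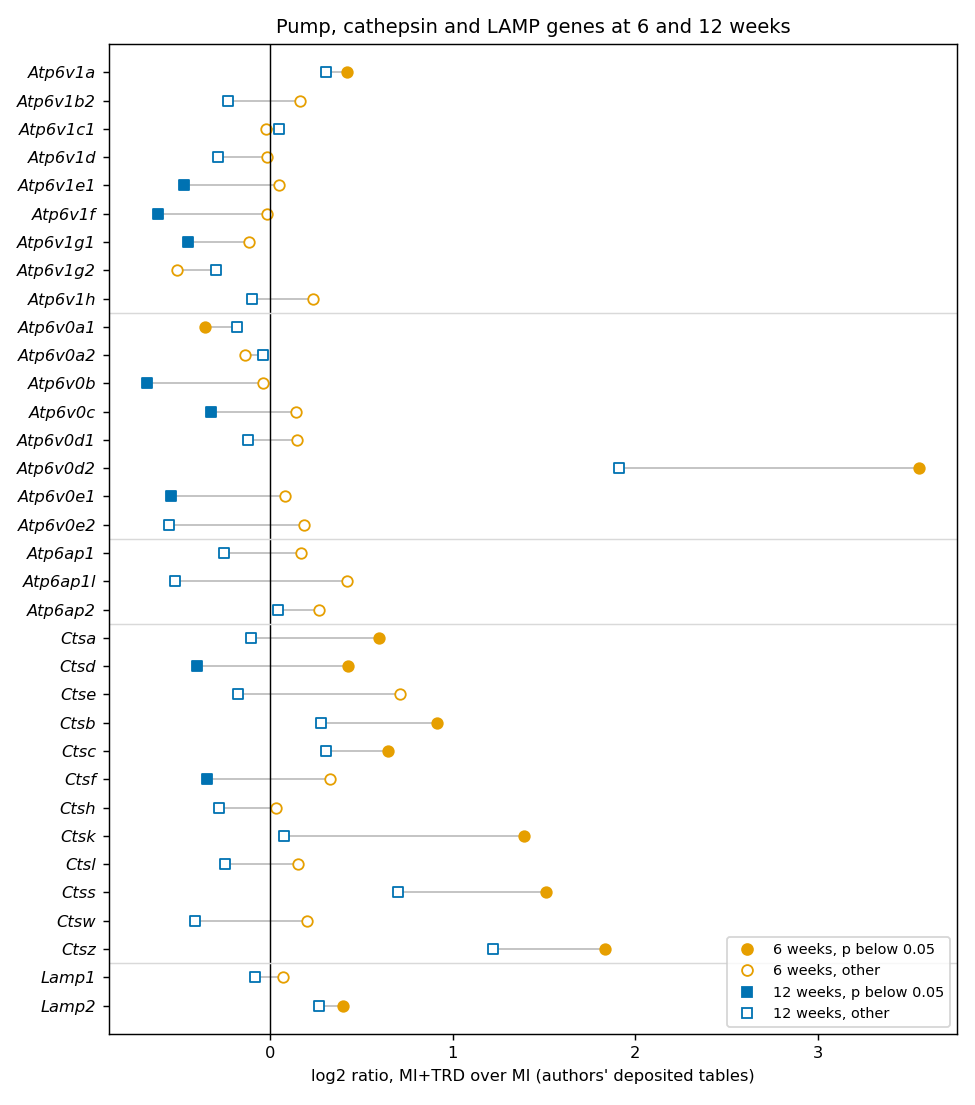
Log2 ratio of MI+TRD to MI (x axis) for all 34 genes (y axis, grouped by role), from the authors' deposited tables. Orange circles are 6 weeks and blue squares 12 weeks, filled where the authors' p was below 0.05. All 12 cathepsins lie right of 0 at 6 weeks, and at 12 weeks 6 pump genes and 2 cathepsins are filled on the left.

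At 12 weeks the cathepsins were not displaced as a group, and about as many members were lower with the device as among all genes. The test there was limma on log2(value + 0.208), and each log2 fold change is given relative to the median gene, which lay at −0.14 in MI+TRD on the deposited scale. P-values and counts stay on the deposited scale. At an unadjusted p below 0.05, 7 of the 31 measured genes were lower in MI+TRD (22.6%) and 0 higher. Over all 10655 genes tested, 19.1% were lower and 2.8% higher, so the members' share lay close to the background. Adjusted over all genes, limma called none of the 31 (lowest adjusted p = 0.135), and none of the other genes (0% called), and DESeq2 and edgeR on recovered reads called no member, though DESeq2 gave no p for Ctsz. Of 18 pump genes 6 were lower (33.3%), of 11 cathepsins 1, and of 2 LAMPs 0.

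The lower pump genes included parts of both sectors, and for each the MI+TRD libraries 1, 4 and 5 stood below every MI library, except Atp6v0e2 in library 5. Atp6v1e1 (chromosome 4, 153351434 to 153373559, rn6) encodes the E subunit of the outer stalk. Its normalized counts had a lowest, median and highest value of 32.3, 42.4 and 54.8 in MI+TRD and of 50.3, 53.5 and 68.6 in MI. Here 5 of 6 MI+TRD libraries lay under the lowest MI library, and the means were 42.1 ± 9.5 in MI+TRD and 57.2 ± 8.23 in MI (SD, n = 6 each; relative log2 fold change −0.32, SE 0.16, limma adjusted p = 0.135).

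Its partner in the stalk, the G subunit gene Atp6v1g1 (chromosome 5, 79367663 to 79373844), ran from 38.2 through a median of 57.5 to 89 in MI+TRD, and from 69.3 through 78.5 to 96.9 in MI. Libraries 1, 4 and 5 lay at 38.2 to 42.7, while libraries 2, 3 and 6 lay at 72.3 to 89 within the MI range, so the MI+TRD values fell into separate clusters (relative log2 fold change −0.36, SE 0.22, limma adjusted p = 0.203). Atp6v1f (chromosome 4, 56744563 to 56747658), the F subunit gene of the central stalk, had 13, 22.2 and 30.4 in MI+TRD and 23, 31.7 and 44.7 in MI as lowest, median and highest. All 6 MI+TRD libraries lay below the MI mean and 3 below the lowest MI library, with a relative log2 fold change of −0.46 (SE 0.23, limma adjusted p = 0.159).

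In the membrane sector, Atp6v0b (chromosome 5, 136718352 to 136719869) encodes a proteolipid of the proton-carrying ring. Its counts were 3.85 at the lowest, 7.76 at the median and 16.1 at the highest in MI+TRD, against 11, 13.6 and 16.5 in MI. The 3 low libraries stood at 3.85, 4.75 and 4.98 and the other MI+TRD libraries at 10.5 to 16.1, for a relative log2 fold change of −0.65 (SE 0.31, limma adjusted p = 0.167). Atp6v0e1 (chromosome 10, 16769857 to 16792931), which encodes a small subunit of V0, had 13, 19.6 and 33.7 in MI+TRD and 26, 31.1 and 35.6 in MI (relative log2 fold change −0.43, SE 0.21, limma adjusted p = 0.151). For it 4 of 6 MI+TRD libraries lay below all MI libraries. Its paralog Atp6v0e2 (chromosome 4, 78168117 to 78171266) had 4.64, 6.75 and 8.56 in MI+TRD and 6.6, 9.23 and 14.2 in MI, with all 6 MI+TRD libraries under the MI mean (relative log2 fold change −0.35, SE 0.21, limma adjusted p = 0.189).

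**Figure D2:**
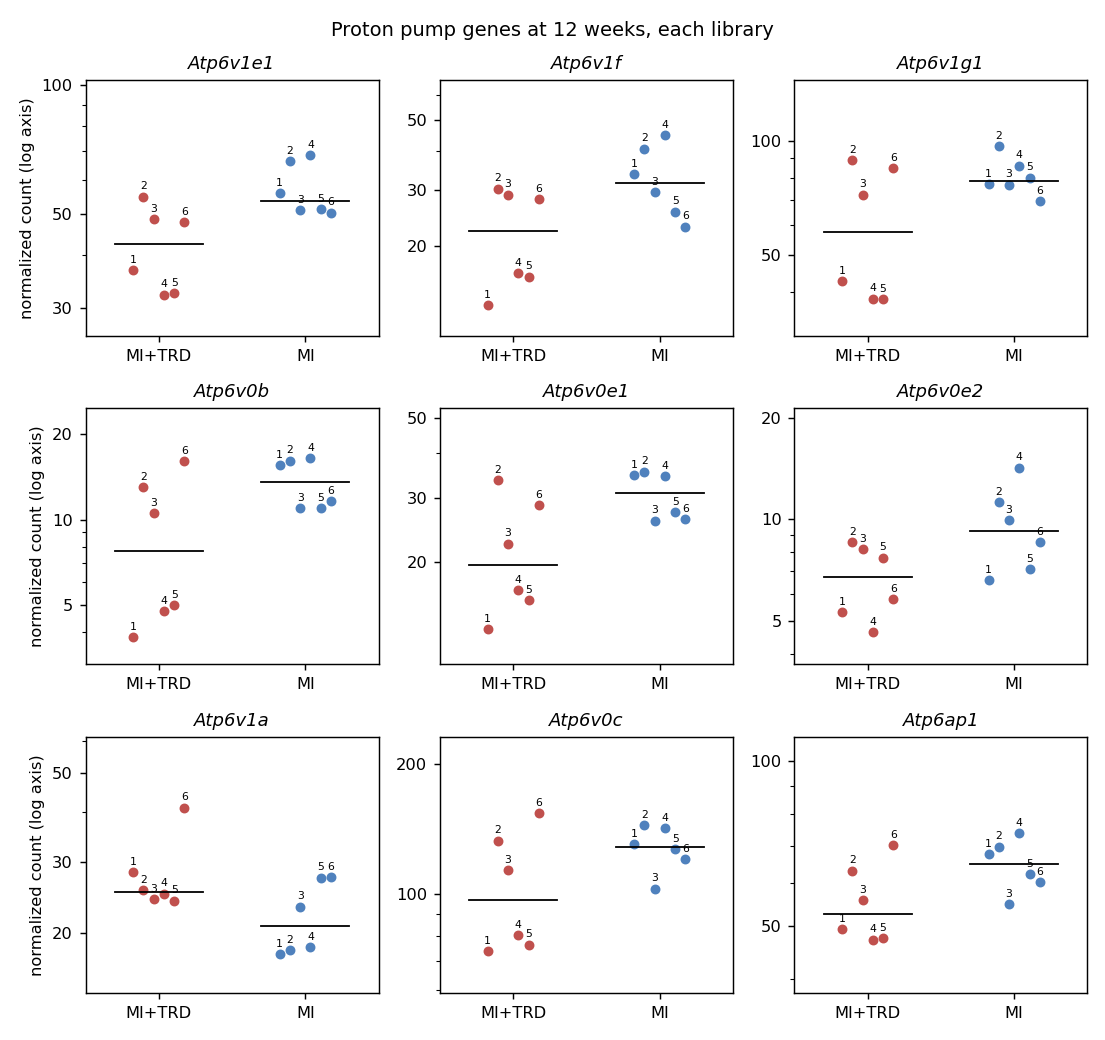
Normalized count of 9 pump genes in each 12-week library (y axis, log scale), with MI+TRD in red and MI in blue. The small numbers are replicates and the lines group medians. Replicates 1, 4 and 5 of MI+TRD are the lowest points for 7 of the 9 genes, whereas Atp6v1a is above the MI median in all 6 MI+TRD libraries and Atp6v0e2 is lowest in replicates 4 and 1.

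The remaining pump genes did not pass that p. Atp6v1a (chromosome 11, 61531578 to 61584635), the catalytic subunit gene that was also higher at 6 weeks, had 24.1, 25.3 and 40.9 in MI+TRD and 17.8, 20.9 and 27.5 in MI as lowest, median and highest. Each of the 6 MI+TRD libraries exceeded the MI mean, replicate 6 by most, and the relative log2 fold change was 0.48 (SE 0.17, limma unadjusted p = 0.0588, adjusted p = 0.248). The shaft gene Atp6v1d (chromosome 6, 102032271 to 102047755) had 43.3, 54.4 and 68.5 in MI+TRD and 56, 63.2 and 78.6 in MI (relative log2 fold change −0.12, SE 0.14, limma adjusted p = 0.274). The 4 remaining V1 genes, Atp6v1b2 of the catalytic ring, Atp6v1c1 of the stalk collar, the regulatory Atp6v1h and the paralog Atp6v1g2, did not pass it either: relative log2 fold changes were −0.06, 0.22 and 0.07 for the first 3, and for Atp6v1g2 the means were 0.609 in MI+TRD and 0.749 in MI in the authors' deposited table (p = 0.358).

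In V0, Atp6v0c, which encodes the main proteolipid of the ring, had 73.7, 96.9 and 154 in MI+TRD and 102.8, 128.6 and 144 in MI. MI+TRD replicates 1, 4 and 5 held its 3 lowest values and replicate 6 its highest, and the relative log2 fold change was −0.19 (SE 0.19, limma adjusted p = 0.310). Relative log2 fold changes were −0.01 for Atp6v0a1, 0.14 for the paralog Atp6v0a2 and 0.06 for Atp6v0d1, the promoter of which holds the E-box shown above. The accessory gene Atp6ap1 (chromosome X, 156407973 to 156415054), whose product Ac45 guides assembly of V0, had 47.3, 52.7 and 70.2 in MI+TRD and 54.8, 64.9 and 73.8 in MI (relative log2 fold change −0.09, SE 0.13). Atp6ap2 (chromosome X, 11137889 to 11164855), the prorenin receptor gene, had 4.12, 6.76 and 10.7 in MI+TRD and 5.55, 6.2 and 7.42 in MI (0.17, SE 0.20). Neither differed beyond the spread of its libraries (limma adjusted p = 0.320 and 0.963), and Atp6ap1l, a relative of Atp6ap1, had −0.12 (SE 0.47).

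The set of lower genes depended on how libraries were scaled. With every library scaled to equal totals, with median ratios, or with edgeR or DESeq2 on recovered reads, an unadjusted p under 0.05 was reached by 3 members upward and 0 downward, and these 3 were Atp6v1a, Ctsc and Lamp2 under each of those settings. Of all genes, 11.3% were higher and 3.87% lower with equal totals, and 7.49% higher and 8.24% lower with median ratios. With edgeR 8.0% were higher and 6.97% lower, and with DESeq2 8.88% higher and 7.17% lower. Quantile normalization gave 3 members higher and 4 lower, beside 6.58% of all genes higher and 9.78% lower. The pump median stayed between −0.11 and −0.10 over these 5 settings, whereas Ctsz, Ctss and Ctsk moved with edgeR and DESeq2. Without MI+TRD replicates 1, 4 and 5, a choice made after seeing the data, 2 members were higher and 0 lower, beside 2.68% of all genes higher and 9.68% lower, and the pump median was 0.08. Single libraries also moved the count of 7 lower members, and the count over all genes, 2033 with every library kept, moved too. Leaving out MI+TRD 1 gave 2 lower members, beside 1607 of all genes lower. Leaving out MI 4 gave 2 as well, beside 1431. The members lower were 3 once MI+TRD 4 was dropped, beside 1610. They were 4 once MI+TRD 5 was dropped, beside 1715, and 4 once MI 2 was, beside 1582. Dropping MI+TRD 6 gave 11, beside 2323.

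Most of the lower members were short genes, the exceptions being Atp6v1e1 and Atp6v0e1. Their genomic spans had a median of 6.18 kb (1.52 to 23.1 kb), against 23.0 kb for the 24 other members and 21.3 kb for all genes tested. Among all genes, the relative median was −0.29 for the 353 spanning up to 2 kb and 0.15 for the 1410 spanning 50 to 100 kb, and 41.6% of those short genes were lower at the same p. In MI+TRD replicates 1, 4 and 5 the genes of up to 2 kb lay at −0.65, −0.48 and −0.50 against the MI mean, and in replicates 2, 3 and 6 at 0.01, −0.05 and −0.17. With a trend over span removed from each library, chosen after seeing the data, 2 members stayed lower, namely Atp6v0e1 at −0.45 and Atp6v1e1 at −0.33, and 2 were higher, Atp6v1a and Ctsc. Of all genes 6.17% were then lower and 6.72% higher, so 2 of 31 each way was close to the background. What lies behind the relation with span was not tested.

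**Figure D3:**
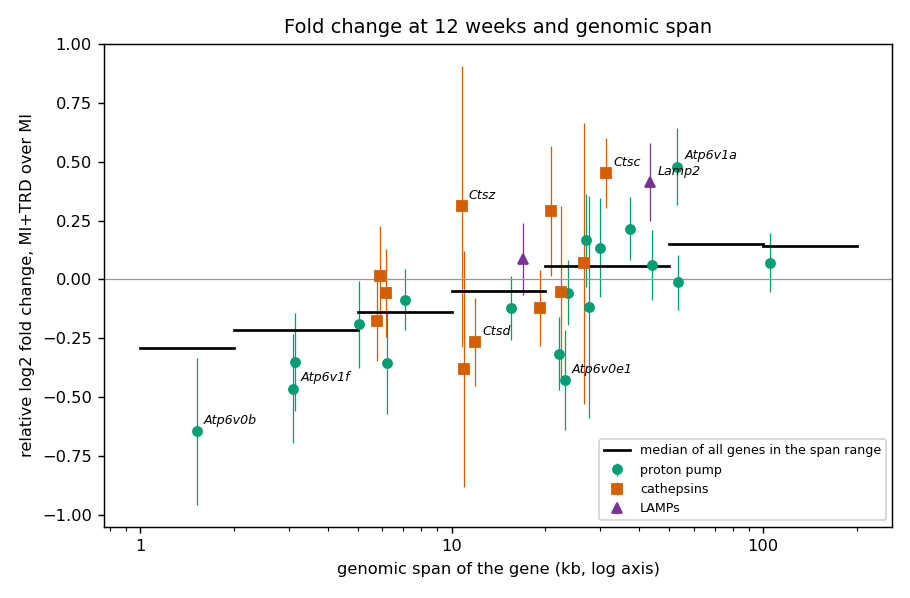
Relative log2 fold change of the 31 measured genes at 12 weeks (y axis, bars 1 SE) against genomic span (x axis, kb, log scale). Black lines are the medians of all genes in 7 ranges of span, from −0.29 up to 2 kb to 0.15 at 50 to 100 kb, with the lowest and the highest range drawn from 1 kb and to 200 kb. Atp6v0b, the shortest member at 1.52 kb, is the lowest, and Atp6v1a, Ctsc and Lamp2 lie above the line of their range.

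Among cathepsins at 12 weeks Ctsd alone was lower at an unadjusted p below 0.05 with limma, and Ctsf joined it in the authors' deposited table (ratio 0.786, p = 0.0476). Ctsd (chromosome 1, 215541570 to 215553447), with the E-box nearest to its start, had 119, 172 and 298 in MI+TRD and 200.2, 229.8 and 283 in MI as lowest, median and highest. In 5 of 6 MI+TRD libraries it lay below the lowest MI library, and in replicate 6 above the highest, so the relative log2 fold change was −0.27 (SE 0.19, limma adjusted p = 0.217) and −0.38 without replicate 6. Ctsl (chromosome 17, 1873105 to 1879264), the cathepsin L gene, had 99.2, 136 and 179 in MI+TRD and 123, 142 and 235 in MI, groups that overlap (−0.06, SE 0.19, limma adjusted p = 0.571).

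Ctsc (chromosome 1, 151918598 to 151949980) was the cathepsin with the smallest p at 6 weeks and lay above its MI level at 12 weeks too. Its counts were 27.6, 31.7 and 49.8 in MI+TRD and 22.7, 27.4 and 30.4 in MI. Each of the 6 MI+TRD libraries exceeded the MI mean and 3 exceeded the top MI library, for a relative log2 fold change of 0.45 (SE 0.15, limma unadjusted p = 0.0527, adjusted p = 0.235; DESeq2 adjusted p = 0.113). Of the genes described here it had the smallest p with edgeR, and with DESeq2 among those given one.

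The cathepsin genes Ctsz, Ctss and Ctsk were spread widely in MI+TRD and tightly in MI. Ctsz (chromosome 3, 172527107 to 172537878) had 2.15, 5.49 and 75.4 in MI+TRD and 4.24, 7.04 and 8.43 in MI, the highest value being replicate 6 and the next 8.98 in replicate 2. Ctss (chromosome 2, 197653137 to 197679769) likewise had 1.85, 6.81 and 58.7 in MI+TRD and 5.78, 9.09 and 14.6 in MI. Ctsk (chromosome 2, 196655469 to 196666448) had 1.64, 3.93 and 26.9 in MI+TRD and 4.94, 6.38 and 8.7 in MI, with 4 MI+TRD libraries below the lowest MI library and 1 above the highest. In all 3 genes replicate 6 of MI+TRD was the highest of all 12 libraries and replicates 1 and 4 were below the MI range, so neither group was uniformly higher (limma adjusted p = 0.903, 0.961 and 0.585). Their means, 16.8 ± 28.8, 16.6 ± 21.7 and 7.47 ± 9.69 in MI+TRD and 6.75 ± 1.46, 9.62 ± 2.89 and 6.71 ± 1.56 in MI (SD, n = 6 each), rest on replicate 6. The relative log2 fold change with limma was 0.31 for Ctsz (SE 0.60), 0.07 for Ctss (SE 0.60) and −0.38 for Ctsk (SE 0.50). On recovered reads edgeR gave 1.40, 0.88 and 0.24 for these genes and DESeq2 1.41, 0.88 and 0.24, none past an adjusted p of 0.05 where one was given. Without replicate 6 the limma values were −0.32 for Ctsz, −0.44 for Ctss and −0.85 for Ctsk. Ctss was also above the MI range in MI+TRD replicate 2, at 21.0.

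Ctsb (chromosome 15, 46316741 to 46337614) showed the same library at its top, with 126, 168 and 556 in MI+TRD and 156, 186 and 223 in MI (relative log2 fold change 0.29, SE 0.28, limma adjusted p = 0.802). Ctsa had its highest value, 114, there as well, against 49.97 to 79.7 in MI. The cysteine protease genes Ctsf and Ctsh had relative log2 fold changes of −0.18 and −0.12, and the aspartic protease gene Ctse, at a mean of 0.821 in MI+TRD and 0.905 in MI, had −0.05. Ctsw, typical of cytotoxic lymphocytes, had 0.761 in MI+TRD and 1.01 in MI in the authors' deposited table (p = 0.17). The median over the 11 measured cathepsins was −0.05, it was −0.19 without MI+TRD replicate 6, and 0.35 without MI+TRD replicates 1, 4 and 5.

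**Figure D4:**
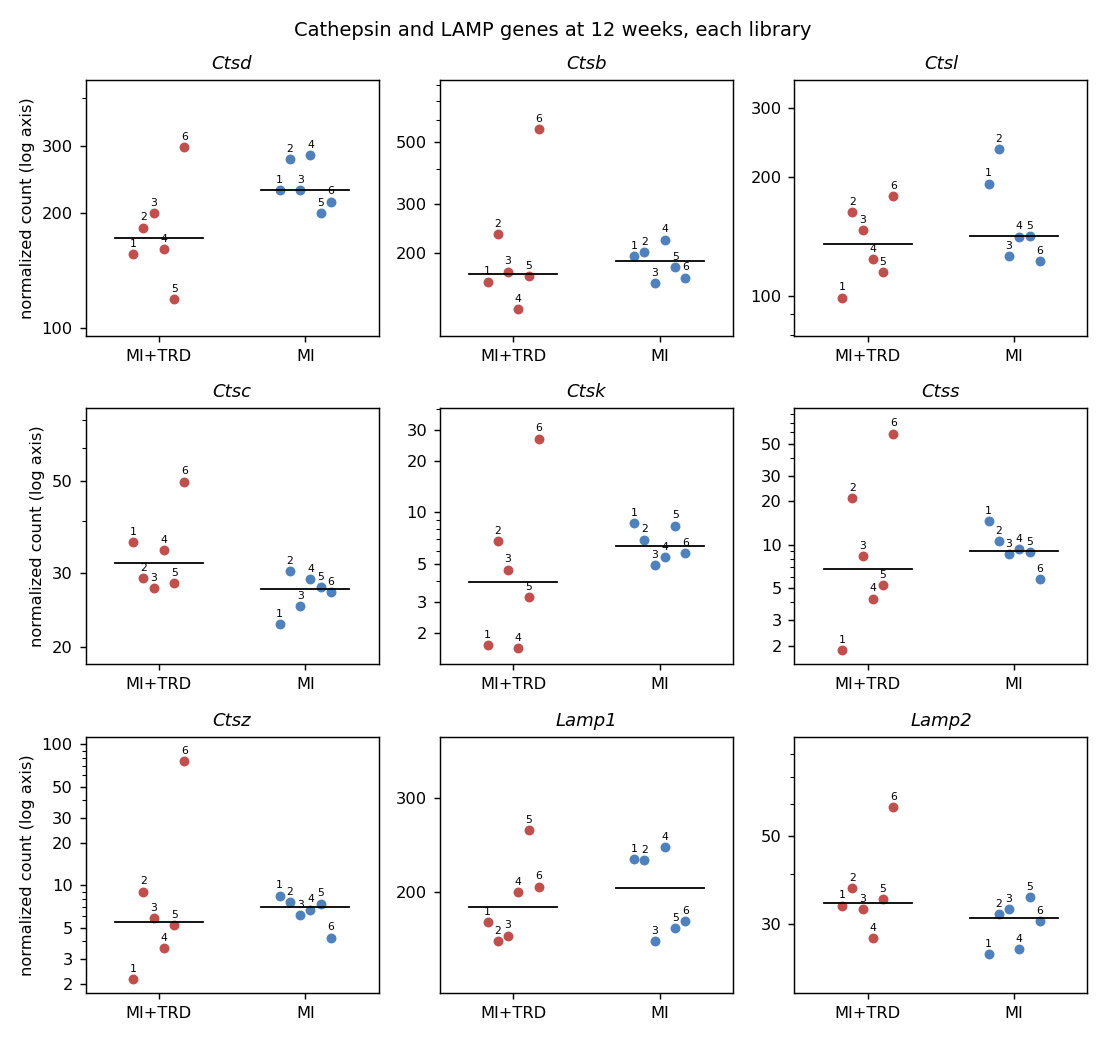
Normalized count of 7 cathepsin and 2 LAMP genes in each 12-week library (y axis, log scale), with MI+TRD in red and MI in blue, replicate numbers beside the points and lines at group medians. MI+TRD replicate 6 is the highest point for Ctsd, Ctsb, Ctsc, Ctsk, Ctss, Ctsz and Lamp2.

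Of the LAMPs, Lamp2 (chromosome X, 124722628 to 124766045) had 27.7, 34 and 58.9 in MI+TRD and 25.2, 31.2 and 35.1 in MI as lowest, median and highest. In MI+TRD 5 of 6 libraries exceeded the MI mean, with a relative log2 fold change of 0.41 (SE 0.16, limma unadjusted p = 0.118, adjusted p = 0.352). Lamp1 (chromosome 16, 81689588 to 81706562), the gene with 5 E-boxes, had 161, 187 and 261 in MI+TRD and 162, 203 and 243 in MI, which overlap almost fully (0.09, SE 0.15, limma adjusted p = 0.874).

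Macrophage genes were high in the library that was high in cathepsins. The summed normalized count of 19 macrophage and monocyte markers was 2335 in MI+TRD replicate 6. It ranged over 71.4 to 300.5 in MI+TRD replicates 1 to 5 and over 96.5 to 257 in MI. The median of the 18 markers tested lay at 2.64 against the MI mean in that library, and the cathepsin median at 0.82. In MI+TRD replicates 1, 4 and 5 the cathepsin median lay at −0.40, −0.36 and −0.30 and the macrophage median at −0.57, −0.74 and −0.11. In MI replicates 1 and 6, with the highest and the lowest macrophage median in MI, that median lay at 0.59 and −0.56 and the cathepsin median at 0.20 and −0.09. The haemoglobin gene Hba2 and the median of the endothelial markers stood apart in MI+TRD replicates 1, 4 and 5 too, but red cell markers as a set did not. Hba2 had 88.3, 234 and 465 there, against 0.498 to 2.71 in MI+TRD replicates 2, 3 and 6 and 0.809 to 25.7 in MI. Hbb, another haemoglobin gene, did not follow it. Over 5 red cell markers, Hba2 and Hbb included, the median was −0.19 in replicate 1, the lowest of the MI+TRD libraries. It was highest in replicates 4 and 5. The endothelial median lay at 0.38, 0.62 and 0.32 in MI+TRD replicates 1, 4 and 5, and at −0.51, −0.15 and −0.48 in replicates 2, 3 and 6. Of its genes only Kdr was above every MI library in replicates 1, 4 and 5, at 156, 180 and 169 against 67.2 to 141 in MI. Cdh5 and Vwf were above them in some of these replicates and Pecam1 and Tie1 in none. Emcn went the other way, at 18.2, 23.4 and 23.0 against 19.8 to 39.2 in MI. In MI+TRD replicates 2 and 3 the cathepsin median lay at 0.18 and 0.08, and the macrophage median at 1.03 and 0.13. The summed fibroblast markers were also highest in replicate 6, at 3100.0. They ran between 722 and 1388 in MI+TRD replicates 1 to 5, and between 825 and 1173 in MI. Col1a1 at 1073, Col1a2 at 610, Col3a1 at 986 and Postn at 43.8 were each highest in replicate 6. The other fibroblast markers were not, with Dcn at 278, Lum at 57.7, Pdgfra at 44.9 and Tcf21 at 6.88 there. With limma 0 of the 18 macrophage markers passed an unadjusted p of 0.05 in either direction. Mesothelial and epicardial markers stood higher with the device at 12 weeks, 5 of 6 being higher and 0 lower at that p, beside 2.8% of all genes higher. Their summed counts were 15.6 to 87.8 in MI+TRD, highest in replicate 6, and 9.44 to 24.5 in MI, and the mesothelin gene Msln averaged 12.7 ± 15.1 in MI+TRD and 0.593 ± 0.537 in MI (SD, n = 6 each). Of 10 cardiomyocyte markers 4 were lower and 0 higher at that p, where 19.1% of all genes were lower too. The part of these cells, red cells and endothelium included, in the pump and cathepsin values was not tested.

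**Figure D5:**
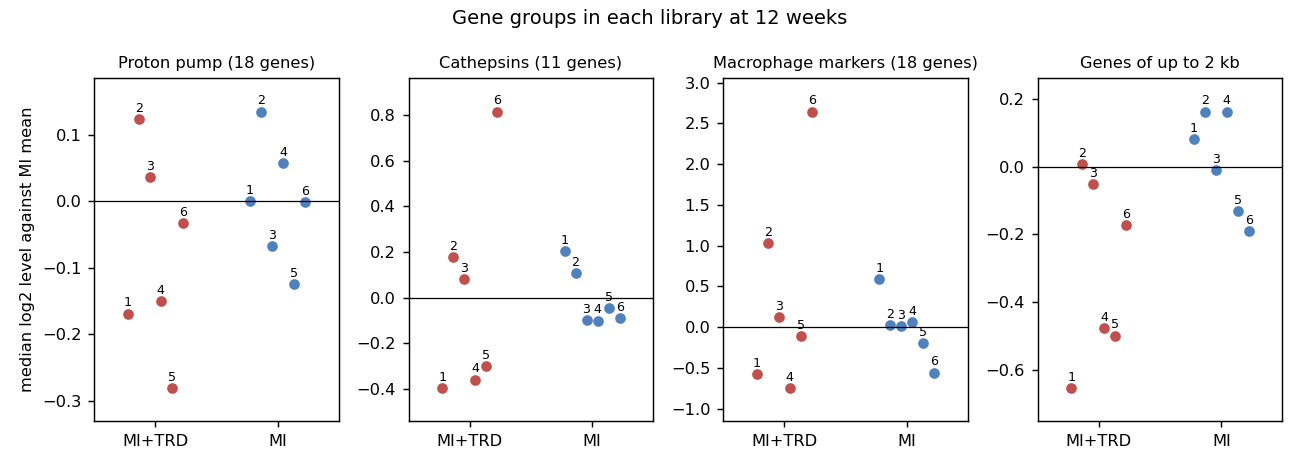
Median log2 level of a gene group in each library, relative to the library's median gene and to the MI mean (y axis; 4 panels with their own scales), with MI+TRD in red and MI in blue. MI+TRD replicate 6 is highest for cathepsins (0.82) and macrophage markers (2.64). MI+TRD replicates 1, 4 and 5 are lowest for the pump, the cathepsins and short genes.

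Set side by side, the authors' deposited tables gave 10 members higher and 1 lower at 6 weeks, and 0 higher and 8 lower at 12 weeks, at p below 0.05. For 6 weeks 4.42% of all genes were higher and 4.09% lower at that p. Over all genes of the authors' deposited table for 12 weeks 2.12% were higher and 22.0% lower at that p, and 2.94% passed an FDR of 0.05, a rate no member reached (lowest FDR 0.0651, for Atp6v0b). Ctsd was past that p in both tables in opposite directions, with a ratio of 1.345 at 6 weeks and 0.756 at 12 weeks in the authors' deposited tables. Its means there were 267 in MI+TRD and 198.5 in MI at 6 weeks, and 189 in MI+TRD and 249.7 in MI at 12 weeks. Atp6v1a, Ctsc and Lamp2 had ratios above 1 in both of the authors' deposited tables, at 1.34, 1.56 and 1.32 at 6 weeks and 1.24, 1.23 and 1.20 at 12 weeks. These comparisons share no libraries, and the difference between the weeks was not tested, because values for each library at 6 weeks were not used.

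Other lysosomal genes, listed with earlier results of these data known, were read the same way. Of 34 measured lysosomal hydrolases 7 were higher and 0 lower at 6 weeks at p below 0.05 in the authors' deposited table, with a median log2 ratio of 0.27. There 4.42% of all genes were higher and 4.09% lower. The β-galactosidase gene Glb1 had 12.9 in MI+TRD and 7.03 in MI there (ratio 1.83), and the legumain gene Lgmn, an asparaginyl protease that processes cathepsins, 79.6 in MI+TRD and 49.5 in MI (ratio 1.61), both in the authors' deposited table at 6 weeks. At 12 weeks 1 of 34 was lower and 0 higher with limma, a smaller share lower than the background of all genes, and that one was Idua, a glycosaminoglycan hydrolase gene at 12.8 ± 2.62 in MI+TRD and 17.5 ± 3.21 in MI (SD, n = 6 each; adjusted p = 0.143).

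Membrane proteins and transporters of the lysosome were mixed, with 1 higher and 1 lower at both times, of 22 genes at 6 weeks in the authors' deposited table and of 21 at 12 weeks with limma. Of all genes 4.42% were higher and 4.09% lower at 6 weeks, and 2.8% higher and 19.1% lower at 12 weeks. The cholesterol carrier gene Npc2 had 89.3 in MI+TRD and 52.1 in MI at 6 weeks in the authors' deposited table. The transporter gene Spns1 had 8.18 ± 1.18 in MI+TRD and 13.3 ± 2.21 in MI at 12 weeks (SD, n = 6 each; relative log2 fold change −0.54, limma adjusted p = 0.133). Among regulators and sorting genes 8 of 19 were lower at 12 weeks (42.1%) and 0 higher with limma, beside 19.1% and 2.8% of all genes. Lamtor2 and Lamtor4, subunits of the Ragulator that docks mTORC1 on the lysosome, had 37.8 ± 10.4 and 15.2 ± 9.77 in MI+TRD and 61.7 ± 17.2 and 27.2 ± 5.71 in MI (limma adjusted p = 0.133 and 0.134). At 6 weeks 1 of these 19 was lower and 0 higher in the authors' deposited table.

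The 6 measured genes listed as assembly factors and partners of the pump include Tcirg1, a V0 subunit gene that the choice by symbol left out of the pump genes. Of these 6, 1 was higher, Oxr1 at a relative log2 fold change of 0.54, and 1 lower, Rnasek at −0.42, at an unadjusted p below 0.05 at 12 weeks. At 6 weeks 0 of the 6 passed either way in the authors' deposited table. Of 3 measured cathepsin inhibitors the cystatin C gene Cst3 was lower at 12 weeks, at 219.8 ± 58.8 in MI+TRD and 356.5 ± 153 in MI (SD, n = 6 each; limma adjusted p = 0.186), and none passed at 6 weeks in the authors' deposited table. Of 22 autophagy genes 2 were higher and 5 lower (22.7%) at 12 weeks at the same p. The share lower was close to the 19.1% of all genes, and 2.8% of all genes were higher. Among the 5 was Map1lc3a, which encodes an LC3 protein of the autophagosome membrane, at 161 ± 71.8 in MI+TRD and 281 ± 55.9 in MI (SD, n = 6 each; limma adjusted p = 0.133).

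Recovered reads came to between 7197099 and 10304189 in each 12-week library. The summed normalized counts of 10 cardiomyocyte markers were 37170 to 54510 in MI+TRD and 44380 to 71020 in MI, so every library held heart muscle RNA. The 4 atrial markers summed to 46.0 to 3257 in MI+TRD and 147.5 to 11800 in MI. In some libraries nearly all of the sum was Nppa, as in MI+TRD replicate 6, with Nppa at 944 and Myl7 at 2.47. Myl7 ranged from 0.0999 to 614 in MI+TRD and from 2.32 to 3170 in MI. Whether the libraries differed in their content of atrial tissue was not tested.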

How the data were processed

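Rat myocardial RNA was sequenced by Illumina technology according to the labels, and the submitters' processing notes name Partek and rn6 with no version or role. The sources used here give no aligner, counting rule, use of strand or statistical model of the authors. The deposited 12-week values are a signal, normalized counts in whole steps (97.2% to 98.6% of values up to 20 steps lay within 0.1 of a whole number), and reads were recovered as value over step, minus 1. The authors deposited, per the file headers, a p-value, an FDR, a linear ratio, a signed fold score and group means for each week. limma 3.58.1 (trended prior, two-sided, Benjamini-Hochberg over all genes) was run on log2(value + 0.208) for the 10655 genes averaging at least 0.415 units, which left out 68. edgeR 4.0.16 and DESeq2 1.42.0 were run on recovered reads, and the fits were tested on simulated data. The labels name no animals, so p-values measure the spread between samples. Counts of any 2 libraries of a group differed beyond counting noise (chi-square over its degrees of freedom at least 14.7).

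Members and gene lists were chosen with earlier results of these data known. Values in full were set for 7 genes, the 10 members with the smallest limma p and the 6 with the smallest 6-week p in the authors' deposited table. Those of Ctss, Atp6v0c and Ctsa, and the 6-week genes from other lists, were added after values were seen. No tests were run over lists. Reads of overlapping genes or close paralogs may be shared between them.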

Additional observations from a re-analysis of the deposited data

Results flagged for a closer look

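Among 62 groups of 6 libraries at 12 weeks, 2 held a library that stood apart from the rest on the log2 scale, by the gap to its nearest neighbour as a share of the group's range (Dixon's test), and chance flags about 1 in 20 groups. For Atp6v1a it was MI+TRD replicate 6, the highest, with a gap of 0.695 of the range. For Atp6ap1l it was MI+TRD replicate 6 as well, the lowest, with 0.659.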

How the results depend on the processing

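Depth limits Ctse and Atp6ap1l, which rest on few reads, and 6 libraries a group limit every p. Pseudocounts and filters changed none of the counts of members at 12 weeks. With equal totals, median ratios, edgeR or DESeq2, 3 members were higher and 0 lower, with 0 pump genes lower, and DESeq2 called 21 genes over all genes while limma and edgeR called 0. Quantile normalization gave 3 higher and 4 lower, and library weights gave 1 lower, a pump gene. Library weights left 1460 of all 10655 genes lower and 149 higher. With the span trend removed 2 were higher and 2 lower, both lower ones pump genes. Without MI+TRD 1, 4 and 5 together, 2 were higher, 0 lower and 0 pump genes lower, with medians of 0.08 for the pump and 0.35 for cathepsins. At 6 weeks 0 members were higher and 0 lower at an FDR of 0.05 in the authors' deposited table.

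Leaving out 1 library at a time gave 0 to 2 members higher, 2 (without MI+TRD 1 or MI 4) to 11 (without MI+TRD 6) lower, 2 to 8 pump genes lower, and cathepsin medians of −0.19 to 0.08. Among all genes 1431 (without MI 4) to 2323 (without MI+TRD 6) were lower, and 190 (without MI 4) to 348 (without MI 5) higher. Relative log2 fold changes then changed sign for Atp6ap1l (−0.46 to 0.19), Atp6v0a1 (−0.05 to 0.03), Ctsa (−0.15 to 0.11), Ctse (−0.20 to 0.13), Ctsl (−0.13 to 0.05), Ctss (−0.44 to 0.49) and Ctsz (−0.32 to 0.65).

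Signs also turned without MI+TRD 1, 4 and 5 for 16 members: Atp6ap1 (0.11), Atp6v0a2 (−0.21), Atp6v0b (0.11), Atp6v0c (0.21), Atp6v0e1 (0.02), Atp6v1b2 (0.08), Atp6v1d (0.07), Atp6v1f (0.02), Atp6v1g1 (0.17), Ctsd (0.05), Ctse (0.29), Ctsf (0.04), Ctsh (0.14), Ctsk (0.67), Ctsl (0.22) and Lamp1 (−0.03). They turned with the span trend removed for Atp6ap1 (0.06), Atp6v0d1 (−0.05), Atp6v1h (−0.08) and Ctsl (0.10), with a larger pseudocount for Ctse (0.03), with edgeR and DESeq2 for Ctsk (0.24 in both) and with library weights for Ctsl (0.07). The cause was not tested.

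Same-numbered samples correlated at −0.33 to 0.327, so the numbers were not taken to pair them, and 3 of 6 MI+TRD samples matched their own number best. With the replicate block 1 member was higher and 7 were lower, beside 272 of all 10655 genes higher and 1835 lower.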
